A study of Mus musculus with 10 samples.

Results

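The T cell receptor complex and its proximal signalling machinery was followed as 38 genes, taken as a list of symbols with no threshold on a measured value, out of 17363 named genes in the table. Messenger RNA was sequenced from CD4+CD25- T cells sorted out of breast tumours of C57BL/6 mice aged 23 weeks, all of which carried the PyMT transgene, a viral oncogene that drives mammary tumours, and floxed Tgfbr2 alleles (Tgfbr2fl/fl), the gene of a TGF-beta receptor chain. IL4-/-KO mice lacked Il4 and carried ThPOKCre, which deletes Tgfbr2 in the CD4 lineage. KO mice carried ThPOKCre with Il4 intact. IL4-/- mice lacked Il4 without Cre, and WT mice had neither change. Each genotype had 2 replicates, and each KO replicate had a first and a repeat library from the same RNA, giving 10 libraries. The labels do not say whether replicates were separate mice, and any p-value here reflects only how far these samples varied, part of which may be technical.

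The receptor recognises peptide on MHC molecules through its alpha and beta chains, and the CD3 and zeta chains carry the signal inward. Lck, brought by the coreceptor CD4, phosphorylates the CD3 and zeta tails, and ZAP-70 docks there and phosphorylates the scaffold LAT. Phospholipase C-gamma-1, calcium, Ras and NF-kB signalling follow. Csk, phosphatases, diacylglycerol kinases and Cbl ubiquitin ligases restrain these steps. In tumours this pathway reads antigen, and TGF-beta signalling is known as a brake on T cell activation.

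Libraries held 17121030 to 33802781 reads counted over named genes. WT and the first KO libraries made up the shallow set, and the KO repeats, IL4-/- and IL4-/-KO made up the deep set. The whole-gene value of Tgfbr2 was 7762 and 8205 in IL4-/-KO, 5803 to 9442 in KO, 13816 and 12544 in IL4-/-, and 7876 and 7894 in WT. It counts reads over all exons, so it does not check the deleted part. Il4 was at 98.7 and 39.7 in IL4-/-KO, 236 to 523 in KO, 97.2 and 75.4 in IL4-/-, and 107 and 276 in WT. Cd4 lay between 12165 and 40172 normalized counts and Cd8a between 0 and 783, while Il2ra, the gene of CD25, was read at 400 to 4641. RNA of other cells was present. Summed epithelial markers (6 of 6 found) were 11766 and 22675 in IL4-/-KO, 55744 and 89221 in KO, 17525 and 38082 in IL4-/-, and 137518 and 18881 in WT. Macrophage markers (8 of 8 found) summed to 11252 and 3583 in IL4-/-KO, 3503 and 7350 in KO, 5933 and 54530 in IL4-/-, and 2364 and 7845 in WT. In bulk RNA, fewer T cells in a sort and less RNA per T cell cannot be told apart.

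All 38 genes were read in all 10 libraries and passed the filter, which asked for 10 or more normalized counts in 2 or more of the 8 replicates. A normalized count is a read count divided by the size factor of its library. The lowest value was 355 (Themis in the repeat library of KO replicate 2), and together the genes took from 1.07% (WT 1) to 1.94% (IL4-/-KO 1) of a library. Per kilobase of merged exons, the highest mean levels were those of Lck (11187) and Cd2 (11134), followed by Cd4 (6423) and Cd3g (6359). The lowest was Cbl (116). The standard deviation between replicates of a genotype, on the log2 scale, ran from 0.19 to 0.96 with a median of 0.48. The spread of the 4 genotype means was larger than that in 13 of the 38 genes. WT 1 was the lowest of the 8 replicates for 17 genes, IL4-/- 2 for 10 and KO 2 for 8, while IL4-/-KO 1 was the highest for 13. WT 1 also had the highest epithelial sum and IL4-/- 2 the highest macrophage sum. The mean log2 level of the epithelial markers was a covariate in an alternative fit, given below, and no fit used the macrophage markers. Whether either caused a difference was not tested.

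**Figure D1:**
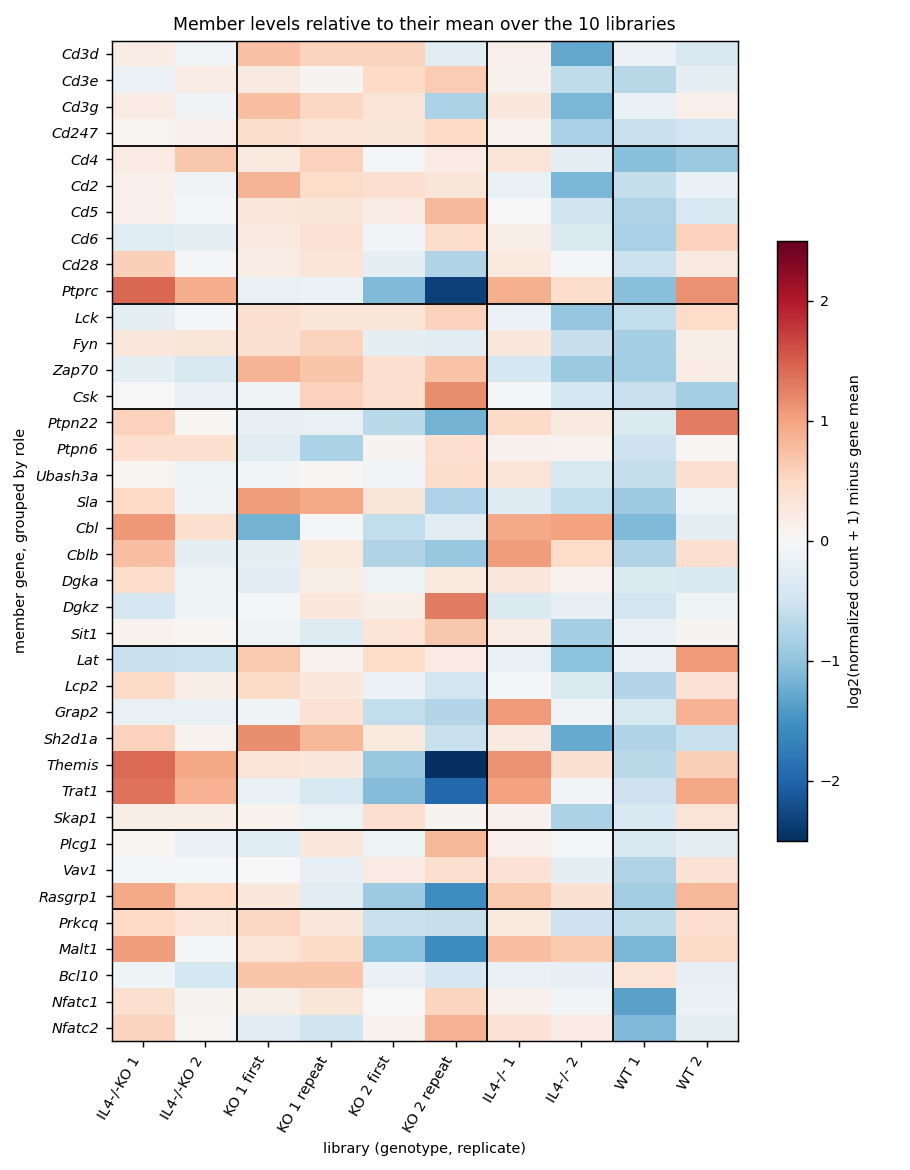
Heat map of the 38 genes (rows, grouped by role) in the 10 libraries (columns, IL4-/-KO, KO, IL4-/- and WT), coloured by log2(normalized count + 1) minus the mean of the gene over the libraries. WT 1 is blue over most rows, and Ptprc, Themis and Trat1 are lowest in the repeat library of KO replicate 2.

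The receptor chains come first. The genes of CD3-gamma, CD3-delta and CD3-epsilon lie together on chromosome 9 in the mm10 build (Cd3g at 44969572 to 44980431 and Cd3e at 44998740 to 45009627 on the minus strand, with Cd3d at 44981786 to 44987339 on the plus strand between them), and Cd247, the zeta chain gene, lies on chromosome 1 at 165788681 to 165877277 on the plus strand. Cd3g and Cd3d are read away from each other, with 1355 bases between their starts. The 250 bases before each start are shown because the expression of these 4 genes is the readout discussed next. They are from RefSeq (GRCm38.p6), 5′ to 3′ on the strand of the gene, and capitals mark AGGAAG or its reverse complement CTTCCT, a core bound by ETS factors.
Cd3g (chr9:44980432-44980681, minus strand): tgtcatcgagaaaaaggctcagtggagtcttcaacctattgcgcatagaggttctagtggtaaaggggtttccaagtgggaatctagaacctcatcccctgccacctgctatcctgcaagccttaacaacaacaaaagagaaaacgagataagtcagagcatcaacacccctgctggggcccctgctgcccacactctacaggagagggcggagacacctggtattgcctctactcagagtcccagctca
Cd3d (chr9:44981536-44981785, plus strand): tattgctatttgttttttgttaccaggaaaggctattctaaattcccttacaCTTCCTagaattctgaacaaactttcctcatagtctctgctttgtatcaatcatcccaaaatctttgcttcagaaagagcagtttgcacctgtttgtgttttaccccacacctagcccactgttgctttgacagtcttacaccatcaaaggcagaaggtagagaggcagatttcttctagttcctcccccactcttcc
Cd3e (chr9:45009612-45009861, minus strand): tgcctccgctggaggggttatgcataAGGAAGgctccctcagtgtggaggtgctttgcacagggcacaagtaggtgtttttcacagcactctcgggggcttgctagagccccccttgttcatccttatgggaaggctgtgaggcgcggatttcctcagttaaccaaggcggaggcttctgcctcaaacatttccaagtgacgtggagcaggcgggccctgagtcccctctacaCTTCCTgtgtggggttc
Cd247 (chr1:165788431-165788680, plus strand): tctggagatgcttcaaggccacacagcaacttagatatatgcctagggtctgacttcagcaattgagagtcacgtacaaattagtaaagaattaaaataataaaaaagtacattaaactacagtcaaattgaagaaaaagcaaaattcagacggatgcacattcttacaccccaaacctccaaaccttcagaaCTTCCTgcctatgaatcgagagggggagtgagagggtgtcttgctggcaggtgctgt

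The AGGAAG core was chosen after the windows had been read. Searched on both strands, it occurred 0 times before Cd3g, 1 time before Cd3d, 2 times before Cd3e and 1 time before Cd247, and 29.5% of 32851 windows of this length held it. The RUNX core TGTGGT (14.0% of windows), the palindromic SMAD site GTCTAGAC (0.167%) and TATAAA (12.4%) were found in none of these 4 windows. These matches describe letters and not binding.

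Cd3d had 9905 and 8272 normalized counts in IL4-/-KO (replicates 1 and 2), 14493 and 12719 in the first KO libraries with 12844 and 7113 in their repeats, 9471 and 3599 in IL4-/-, and 7893 and 6723 in WT. Cd3e had 19433 and 24702 in IL4-/-KO, 25127 and 30578 in the first KO libraries with 22475 and 33606 in the repeats, 23336 and 13925 in IL4-/-, and 13302 and 18177 in WT. For Cd3e every KO library exceeded both WT replicates, whereas for Cd3d the repeat of KO 2 lay between the WT values. Cd3g had 23221 and 19017 in IL4-/-KO, 34183 and 25314 in the first KO libraries with 29138 and 11692 in the repeats, 24478 and 9213 in IL4-/-, and 18041 and 22178 in WT. Cd247 had 9521 and 10131 in IL4-/-KO, 12551 and 11487 in the first KO libraries with 11816 and 13188 in the repeats, 9849 and 5297 in IL4-/-, and 6340 and 6622 in WT. KO and WT did not overlap for Cd247 and did for Cd3g, and IL4-/- 2 was the lowest of the 8 replicates for Cd3d, Cd3g and Cd247. Cd247 shares 56.4% of its merged exon bases with Pou2f1 on the other strand. Strand use in counting is not given in the sources used here, so its reads are uncertain to that extent (Pou2f1 itself was read at 62.0 to 1128 normalized counts).

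The coreceptor gene Cd4 had 28808 and 40172 normalized counts in IL4-/-KO, 29666 and 24236 in the first KO libraries with 37308 and 28722 in the repeats, 31408 and 21531 in IL4-/-, and 12165 and 13115 in WT. Every library of the other 3 genotypes was above both WT replicates. Lck, the kinase that starts the cascade, had 27953 and 31943 in IL4-/-KO, 44178 and 40789 in the first KO libraries with 40862 and 49604 in the repeats, 30118 and 16899 in IL4-/-, and 21700 and 45813 in WT. The WT replicates of Lck spanned all IL4-/-KO values. Zap70 had 4852 and 4349 in IL4-/-KO, 10277 and 7559 in the first KO libraries with 9181 and 9417 in the repeats, 4232 and 2995 in IL4-/-, and 3175 and 6525 in WT. Every KO library stood above every library of the other genotypes for Zap70. Lat, the scaffold, had 8383 and 8451 in IL4-/-KO, 19258 and 16742 in the first KO libraries with 13100 and 14136 in the repeats, 10736 and 6021 in IL4-/-, and 10979 and 25604 in WT. For Lat the Il4-deficient genotypes lay below all KO libraries and below both WT replicates.

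**Figure D2:**
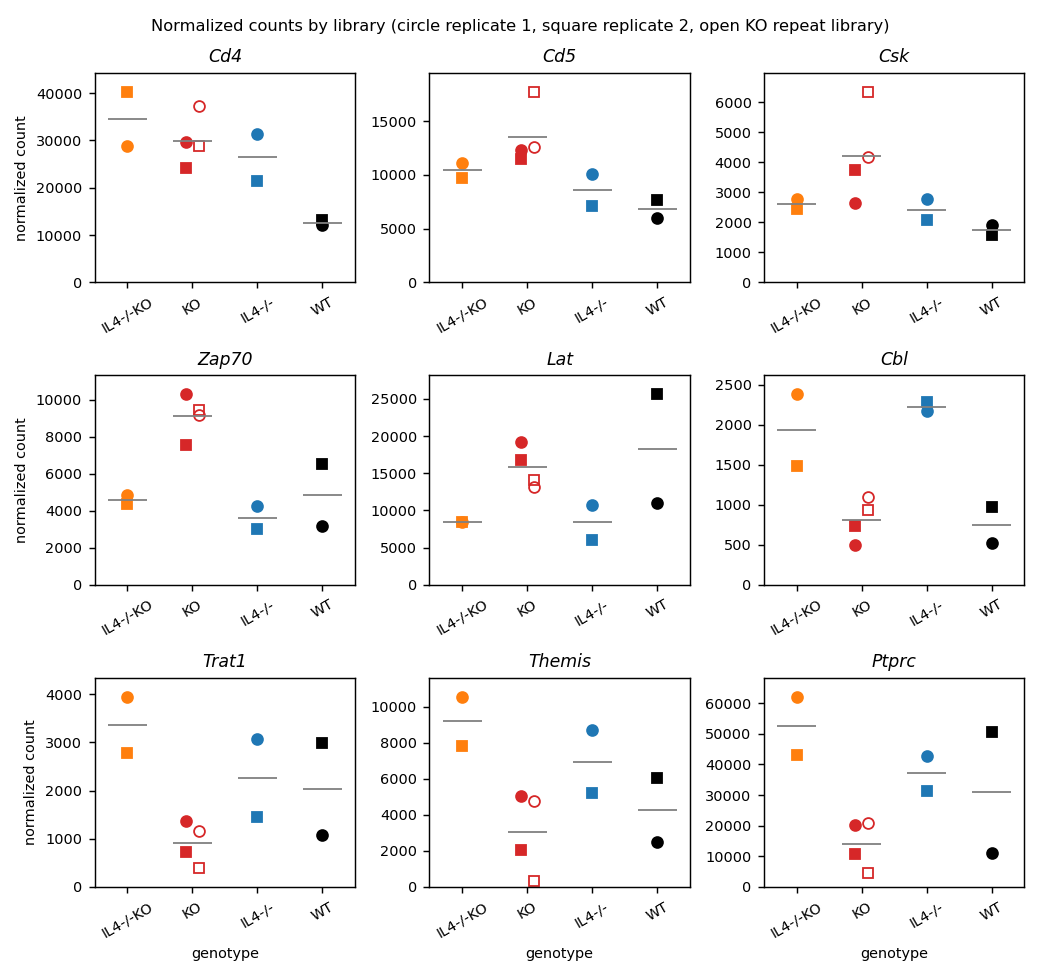
Normalized counts (vertical axes, linear from 0) of 9 genes in every library, by genotype from left to right IL4-/-KO, KO, IL4-/- and WT, with circles for replicate 1, squares for replicate 2, open symbols for KO repeat libraries and grey lines for genotype means. Zap70 is highest in KO, Cbl is high in IL4-/-KO and IL4-/-, and Cd4 is lowest in WT.

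Deletion of Tgfbr2 with Il4 intact was read from KO against WT. None of the 38 genes passed the adjusted threshold, but the values leaned upward. In this comparison 29 genes had higher values in KO and 9 had lower ones. Their median log2 fold change was 0.29, against -0.07 over all 14473 genes tested (25 of the 38 were higher after quantile normalization, which moved the median of all genes by 0.11). All 4 receptor chains were higher (median 0.75, with Cd3g lower after quantile normalization), as were all 4 kinases of the first steps (median 0.74) and 5 of the 6 surface receptors (median 0.63, 4 of 6 after quantile normalization). Of the 7 adaptors 4 were lower (median -0.09), 5 after quantile normalization and 3 when rescaled to T cell genes outside the members. Log2 fold changes of the chains were 0.92 for Cd247, 0.83 for Cd3e, 0.68 for Cd3d and 0.28 for Cd3g.

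The smallest p among the members belonged to Csk, the kinase that switches off Lck. Csk had 2629 and 3726 normalized counts in the first KO libraries with 4189 and 6326 in the repeats, and 1923 and 1568 in WT. Its log2 fold change was 1.25 ± 0.32 (SE), a 2.38-fold higher level (limma adjusted p = 0.345). Both Csk repeats exceeded their first libraries, and with the first KO libraries alone, which share the depth of WT, the log2 fold change was 0.85.

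Cd4 was 2.36-fold higher in KO (log2 fold change 1.24 ± 0.37, limma adjusted p = 0.350), and 1.09 on the log2 scale with the first KO libraries. Cd5, an inhibitory surface receptor whose level tracks receptor signal strength, had 12298 and 11487 in the first KO libraries with 12554 and 17681 in the repeats, and 5955 and 7688 in WT. Its log2 fold change was 0.99 ± 0.31 (limma adjusted p = 0.353), and KO and WT did not overlap. Zap70 was 2.00-fold higher (log2 fold change 0.997 ± 0.387), which became 0.48 without WT 1. Lck differed by 0.48 ± 0.48 and by -0.06 without WT 1. Lat differed by -0.09 ± 0.46, with a range from -0.70 without WT 1 to 0.53 without WT 2.

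limma called 0 of the 38, against 0.00691% of all genes. At an unadjusted p under 0.05, 6 members were higher (Csk, Cd4, Cd5, Cd247, Zap70 and Nfatc1) and 0 lower, against 5.19% of all genes higher and 6.9% lower. edgeR called 0 members, against 0.0% of all genes. DESeq2 called 2, Csk (adjusted p = 0.0129) and Cd4 (adjusted p = 0.0168), against 3.64% of all genes. The upward lean depended on WT 1, since without it 18 of the 38 were higher and the median was -0.06, while without WT 2 it was 0.66.

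**Figure D3:**
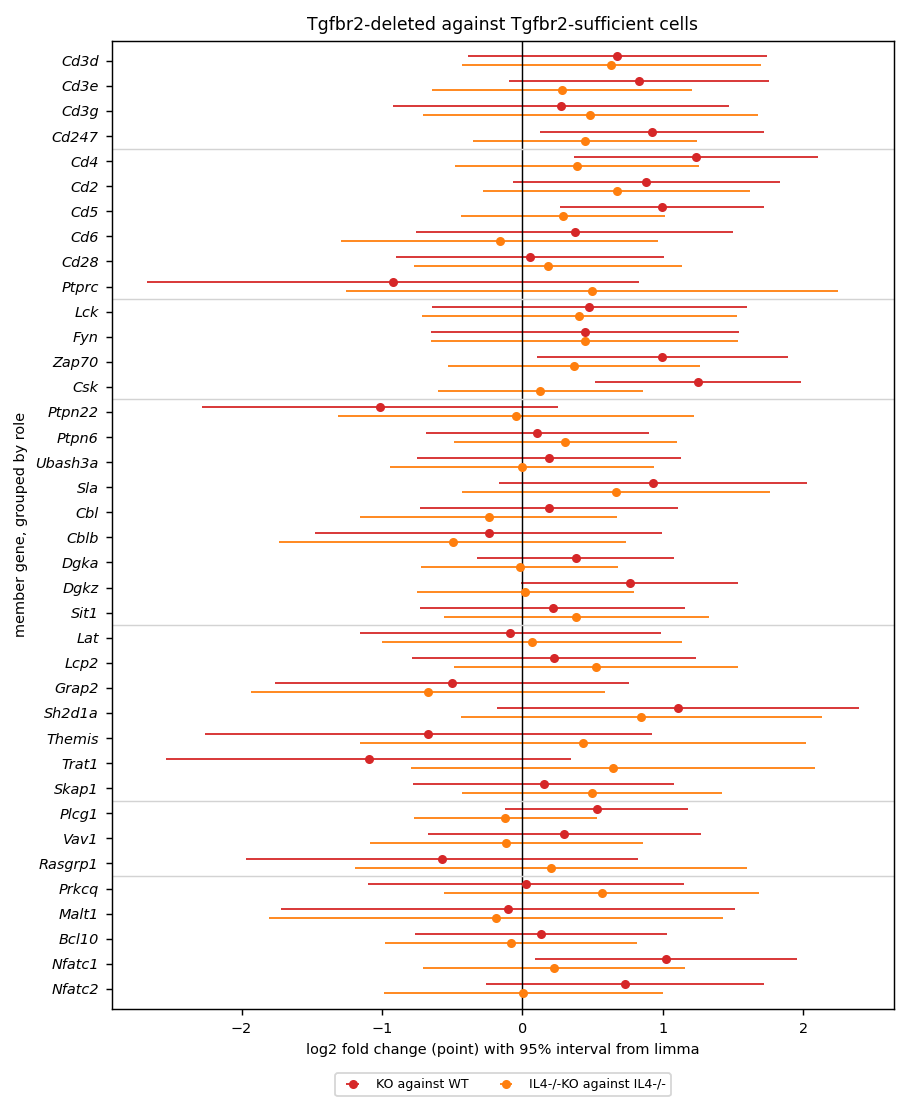
Log2 fold changes (horizontal axis) of the 38 genes with 95% intervals from limma, for KO against WT (red) and IL4-/-KO against IL4-/- (orange). Of the KO against WT intervals 32 of 38 hold 0, and of the IL4-/-KO against IL4-/- intervals all 38 do.

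Deletion of Tgfbr2 without Il4 was read from IL4-/-KO against IL4-/-, all 4 libraries of which were deep. Here 27 of the 38 genes were higher and 11 lower in IL4-/-KO, and the median log2 fold change was 0.29, against -0.03 over all genes. When the libraries were rescaled to T cell genes outside the members, which moved all genes by -0.22, 21 were higher. All 4 receptor chains (median 0.46) and all 4 kinases (median 0.39) were higher by value, and 6 of the 7 adaptors were (median 0.50). The other roles did not all lean upward. Of the surface receptors 5 of 6 were higher (median 0.34), but of the phosphatases and dampers 4 of 9 were (median -0.002). Of the second messengers and exchange factors 1 of 3 was higher (median -0.11), and of the downstream genes 3 of 5 were (median 0.006). With that rescaling Csk and Lat were lower.

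Cd2, an adhesion and costimulatory receptor, had 21699 and 18712 normalized counts in IL4-/-KO, against 17780 and 9021 in IL4-/- (log2 fold change 0.67 ± 0.41, limma adjusted p = 1). Sla, an adaptor that promotes turnover of the receptor complex, had 16379 and 10901 in IL4-/-KO, against 9342 and 7555 in IL4-/-. Skap1, an adaptor linking the receptor to integrins, had 12876 and 13029 in IL4-/-KO, against 12535 and 6721 in IL4-/-. These 3 genes were named partly because their ranges did not overlap, and IL4-/- 2 was the low sample in each. The share of all genes that separated so was not computed. Grap2, which bridges LAT and SLP-76, was the one gene lower without overlap that the naming rule took, at 1611 in both IL4-/-KO replicates, against 3824 and 1726 in IL4-/- (log2 fold change -0.67 ± 0.55, and -0.10 without IL4-/- 1).

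limma called 0 of the 38, against 0.0% of all genes, and 0 passed an unadjusted p of 0.05 in either direction, against 1.3% higher and 1.96% lower. edgeR called 0 (0.0% of all genes) and DESeq2 called 0 (0.352%). Without IL4-/- 2, the replicate with the macrophage sum of 54530, 18 of the 38 were higher and the median was -0.008. Cd2 was then at 0.18 and Skap1 at 0.05. Without IL4-/-KO 1, Sla was at 0.38.

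Over both Il4 backgrounds, IL4-/-KO and KO set against IL4-/- and WT, 28 of the 38 genes were higher and the median was 0.30, against -0.08 over all genes. Cd2 was the member whose 4 replicates with the deletion all exceeded the 4 without it, with 21699 and 18712 in IL4-/-KO and 35884, 26138, 27214 and 24474 in the KO libraries, against 17780 and 9021 in IL4-/- and 13194 and 17806 in WT (log2 fold change 0.78 ± 0.29, limma adjusted p = 0.475). The share of all genes whose groups separated in this way was not computed, so the separation of Cd2 is not read as a result about the members. limma called 0 members, against 0.0207% of all genes. At an unadjusted p under 0.05, 8 were higher (Csk, Cd4, Cd5, Cd247, Cd2, Zap70, Sh2d1a and Sla) and 0 lower, against 4.66% of all genes higher and 5.21% lower. edgeR called 0 (0.0138% of all genes), and DESeq2 called Cd4 (adjusted p = 0.0446, against 2.29% of all genes). The share called by DESeq2 was near that of all genes.

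Loss of Il4 in Tgfbr2-deleted cells was read from IL4-/-KO against KO. By value 18 genes were higher and 20 lower in IL4-/-KO, and the median log2 fold change was -0.06, against -0.07 over all genes. Rescaled to T cell genes outside the members, which moved all genes by -0.59, 8 were higher. All 6 epithelial markers were lower in IL4-/-KO (median -1.66), and with them as a covariate 9 members were higher and 29 lower, with a median of -0.42. All 4 receptor chains were lower (median -0.33, with Cd3g higher after quantile normalization) and 3 of the 4 kinases were (median -0.61, 4 with that rescaling), while 5 of the 7 adaptors were higher (2 with that rescaling). This comparison shares the KO libraries with KO against WT, so the values of both stand side by side and are not independent.

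The largest differences were upward. Trat1, an adaptor associated with the receptor complex, had 3946 and 2781 normalized counts in IL4-/-KO, against 1363 and 718 in the first KO libraries, with 1157 and 393 in the repeats. It was 3.95-fold higher in IL4-/-KO (log2 fold change 1.98 ± 0.62, limma adjusted p = 0.348), and without KO 2 the log2 fold change was 1.39. Themis, a T cell protein of receptor signalling first known from thymocytes, had 10562 and 7817 in IL4-/-KO, against 5025 and 2078 in the first KO libraries, with 4784 and 355 in the repeats. Its 3.72-fold difference (log2 fold change 1.89 ± 0.69) became 0.89 on the log2 scale without KO 2.

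Ptprc, the gene of CD45, which activates Lck by removing its inhibitory phosphate, had 62127 and 43210 in IL4-/-KO, against 20346 and 10718 in the first KO libraries, with 20735 and 4599 in the repeats (log2 fold change 2.05 ± 0.76, and 1.33 without KO 2). Cbl, a ubiquitin ligase, had 2379 and 1490 in IL4-/-KO, against 498 and 733 in the first KO libraries, with 1094 and 931 in the repeats. It was 2.31-fold higher (log2 fold change 1.21 ± 0.40), and 0.90 on the log2 scale against the repeats, which share the depth of IL4-/-KO. In all 4 genes both IL4-/-KO replicates lay above every KO library, and Trat1, Themis and Cbl were named partly for this. The share of all genes that separated so was not computed, so the separation is not read as a result about the members. With the epithelial markers as a covariate the log2 fold changes were 1.03 for Trat1, 1.01 for Themis, 0.91 for Ptprc and 0.78 for Cbl, and with the trend on exon length removed they were 0.95 for Ptprc and 0.45 for Cbl.

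Zap70 was lower, with a log2 fold change of -0.98 ± 0.39 (limma adjusted p = 0.399), and its groups did not overlap. Lat differed by -0.91 ± 0.46 and by -0.69 against the repeats alone. With the epithelial covariate they were at -1.51 and -1.53. Dgkz, a diacylglycerol kinase, had 5411 and 6730 in IL4-/-KO, against 7042 and 8187 in the first KO libraries, with 8650 and 17752 in the repeats. Its difference of -0.74 ± 0.33 was -1.04 against the repeats and -0.33 against the first libraries, so it moved with the choice of library. limma called 0 of the 38, against 0.0% of all genes. At an unadjusted p under 0.05, 4 members were higher (Trat1, Cbl, Themis and Ptprc) and 1 lower (Zap70), against 8.53% of all genes higher and 3.13% lower. Both shares were near those of all genes, so these counts are not read as a result about the members. edgeR called 0 (0.0% of all genes) and DESeq2 called 0 (2.72%).

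**Figure D4:**
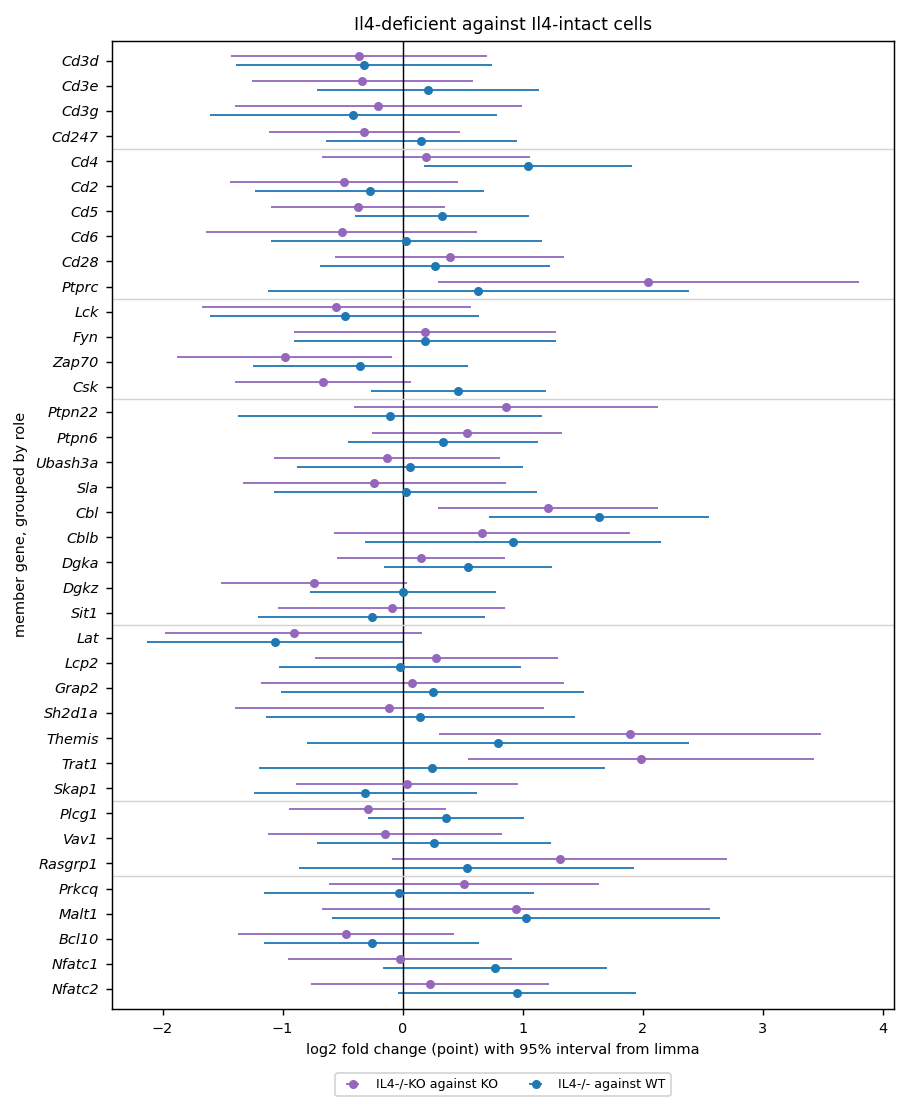
Log2 fold changes (horizontal axis) of the 38 genes with 95% intervals from limma, for IL4-/-KO against KO (purple) and IL4-/- against WT (blue). Trat1, Themis and Ptprc have the widest upward differences in purple, and Cbl lies above 0 in both comparisons.

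Loss of Il4 in Tgfbr2-sufficient cells was read from IL4-/- against WT, which differ in depth set throughout, so genotype and depth set cannot be told apart within this pair. In IL4-/- 26 genes were higher and 12 lower (median 0.20, against 0.01 over all genes), and 14 were higher when rescaled to T cell genes outside the members, which moved all genes by -0.28. Cbl had 2171 and 2280 normalized counts in IL4-/-, against 526 and 970 in WT, a 3.11-fold difference (log2 fold change 1.64 ± 0.40, limma adjusted p = 1). In a fit of all 10 libraries with a term for the depth set, which takes that term from the paired KO libraries, it was 0.90. Cd4 was 2.06-fold higher (log2 fold change 1.04 ± 0.37, and 0.75 with that term).

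Nfatc2, a transcription factor released by calcium signalling, had 3031 and 2731 in IL4-/-, against 1097 and 2015 in WT (log2 fold change 0.95 ± 0.43). It was 0.51 without WT 1 and 0.56 with the trend on exon length removed. Lat differed by -1.06 ± 0.46, and by -0.66 with the depth term and -0.45 without WT 2. limma called 0 of the 38, against 0.0% of all genes, and 2 members were higher (Cbl and Cd4) and 0 lower at an unadjusted p under 0.05, against 2.63% of all genes higher and 1.46% lower. edgeR called 0 (0.0%) and DESeq2 called 0 (0.214%). Without WT 1, 15 of the 38 were higher and the median was -0.25, and without IL4-/- 1 it was -0.17.

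Whether the effect of Tgfbr2 deletion depended on Il4 was tested as the interaction, the difference in IL4-/- mice minus the difference in Il4-intact mice. Csk had the smallest p, with an interaction of -1.12 ± 0.45 (limma adjusted p = 0.988). Its log2 fold change was 0.13 in IL4-/-KO against IL4-/- and 1.25 in KO against WT. Trat1 (1.74 ± 0.88), Ptprc (1.42 ± 1.07) and Ptpn22, a phosphatase that acts on Lck (0.97 ± 0.77), had positive interactions. Plcg1, the phospholipase (-0.65 ± 0.40), and Cd4 (-0.85 ± 0.53) had negative ones. Without WT 2 the interactions were 0.9996 for Trat1, 0.32 for Ptprc and 0.14 for Ptpn22, and with the epithelial markers as a covariate they were 1.20, 0.77 and 0.50. With the first KO libraries alone they were -0.72 for Csk and -0.22 for Plcg1, which was -0.98 with the repeats alone. Overlap of groups does not apply to an interaction, so these genes were taken by p alone. Per replicate, Ptpn22 had 14548 and 10098 in IL4-/-KO, 8524 and 6096 in the first KO libraries with 8552 and 4334 in the repeats, 13722 and 11420 in IL4-/-, and 7602 and 23862 in WT. Plcg1 had 5414 and 4634 in IL4-/-KO, 4259 and 4842 in the first KO libraries with 6343 and 9348 in the repeats, 5762 and 5157 in IL4-/-, and 3985 and 4536 in WT.

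limma called 0 interactions among the 38, against 0.0% of all genes, with 0 higher and 1 lower (Csk) at an unadjusted p under 0.05, against 1.68% and 1.84%. edgeR called 0 (0.0%) and DESeq2 called 0 (0.242%). The median interaction was -0.20, against 0.00 over all genes, and 13 of the 38 were positive (17 after quantile normalization, and 7 with the rescaling to T cell genes, which moved all genes by -0.31). It was 0.23 without WT 1 and 0.19 without IL4-/- 1. The 95% intervals of the interactions reached 0.92 to 2.48 on either side of the estimate, so differences of that size were not resolved.

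The remaining members are given by range. Among the dampers, Ptpn6 ran from 2871 to 6649 normalized counts, Ubash3a from 3914 to 8038, Dgka from 7463 to 13126, Cblb from 2096 to 8241 and Sit1 from 1705 to 4837. Among the surface receptors and kinases, Cd6 ran from 13536 to 35398, Cd28 from 5999 to 15326 and Fyn from 8533 to 22271. None of these 8 genes passed an unadjusted p of 0.05 in any of the 6 comparisons. Among adaptors and exchange factors, Lcp2 (SLP-76) ran from 7369 to 16953, Sh2d1a (SAP) from 652 to 3480, Vav1 from 3275 to 7341 and Rasgrp1, which activates Ras, from 2084 to 11841. Downstream, Prkcq ran from 4073 to 9074, Malt1 from 943 to 5848, Bcl10 from 1992 to 4391 and Nfatc1 from 3478 to 12736. The last was 1.02 ± 0.40 higher on the log2 scale in KO than in WT, where WT 1 was its lowest value.

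The wider pathway was described with 69 further genes. The constant chains of the receptor itself (Trac, Trbc1 and Trbc2) were listed but not found by these symbols, so they were not analysed here. limma and edgeR called 0 of the 69 in each of the 6 comparisons. DESeq2 called 5 in KO against WT (Orai1, Was, Pik3cd, Nfkbia and Rasa1), 4 in IL4-/-KO against KO (Orai1, Nfkbia and Rasa1 among them), 3 over both Il4 backgrounds (Orai1, Was and Dok2) and 0 in the others. These DESeq2 counts stand against 3.64%, 2.72% and 2.29% of all genes. In KO against WT, 12 of the 69 were higher and 8 lower at an unadjusted p under 0.05, against 5.19% and 6.9% of all genes, and their median was 0.01. Orai1, the pore of the calcium channel opened by receptor signalling, had 10887 and 7446 in the first KO libraries with 10534 and 14008 in the repeats, against 3632 and 3926 in WT. Its log2 fold change was 1.505 ± 0.254 (limma adjusted p = 0.250), and it was -1.07 ± 0.25 in IL4-/-KO against KO, where IL4-/-KO had 4748 and 5485. The interaction of Orai1 was -1.11 ± 0.36 (limma adjusted p = 0.988). Was, an actin regulator, had 2630 and 2587 in the first KO libraries with 3749 and 5118 in the repeats, against 1051 and 1718 in WT. KO lay above WT without overlap for both genes.

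In IL4-/-KO against KO, 11 of the 69 were higher and 4 lower at an unadjusted p under 0.05, against 8.53% and 3.13% of all genes. By value, 10 of 14 genes of the calcium and NFAT arm were higher (median 0.57, and -0.02 with the rescaling to T cell genes). Before rescaling, the medians of the other arms ran from -0.04 to 0.54. In IL4-/-KO against IL4-/-, 1 was higher, a share near that of all genes, and 0 lower, against 1.3% and 1.96% of all genes. That gene was Dok2, a docking protein that dampens signalling, at 6998 and 5947 in IL4-/-KO, against 3303 and 2284 in IL4-/-, and the next by p was the adaptor gene Grap (log2 fold change 0.97 ± 0.44). In IL4-/- against WT, 2 were higher and 0 lower, Pik3cd and Pik3r1, which encode a catalytic and a regulatory subunit of PI3 kinase (0.996 ± 0.324 and 0.84 ± 0.36), against 2.63% and 1.46% of all genes, so the share of higher genes was near that of all genes. The interaction had 0 higher and 2 lower, Orai1 and Pik3cd, against 1.68% and 1.84% of all genes. Over both Il4 backgrounds 9 were higher and 4 lower, against 4.66% and 5.21%.

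The libraries made again from the same RNA gave the technical spread of these genes. In KO 1, the repeat differed from the first library by a median of 0.21 log2 units, with 1 of the 38 genes over 1 (Cbl, 1.13). In KO 2, the median was 0.43 and 5 genes were over 1, led by Themis (2.55 lower in the repeat). The replicate pairs differed by medians of 0.30 in IL4-/-KO, 0.69 in KO, 0.53 in IL4-/- and 0.88 in WT. In WT, 34 of the 38 genes were lower in replicate 1.

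**Figure D5:**
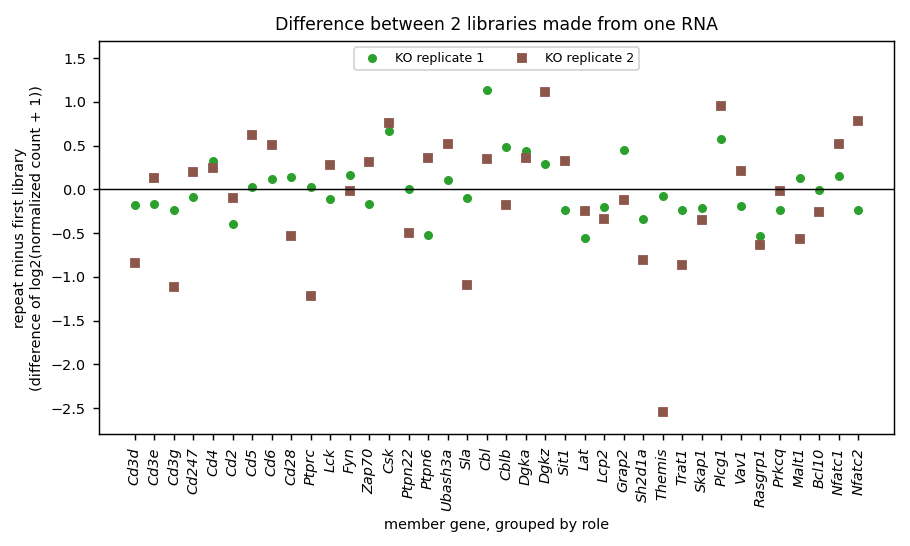
Repeat minus first library, as the difference of log2(normalized count + 1) (vertical axis), for each of the 38 genes (horizontal axis) in KO replicate 1 (circles) and KO replicate 2 (squares). Most circles lie close to 0, and Themis, Ptprc, Cd3g and Sla of replicate 2 lie below -1.

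Exon length moved with the differences. Across the 38 genes the Spearman correlation of log2 fold change with merged exon length was -0.30 in KO against WT, -0.33 in IL4-/-KO against IL4-/-, 0.49 in IL4-/-KO against KO and 0.54 in IL4-/- against WT. Over 14216 genes with a length it was -0.22, -0.13, 0.28 and 0.21 in the same order. The points of each comparison share the same few libraries. With no difference in genotype, the repeat against its first library gave 0.44 in KO 1 and -0.05 in KO 2. The part of length in the results was not tested.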

How the data were processed

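The deposited signal per gene is a library's reads over a constant of that library. Whole reads were recovered for 100% of values (tolerance 0.001 reads), with 1 read worth 0.644 to 1.47 normalized counts, so that a value of 0 would allow 3 reads, or 1.93 to 4.41 normalized counts (counting error only). Per the submitters' processing notes, bcl2fastq 2.18.0, STAR and DESeq2 were used on mm10. The counter, annotation and strand setting are not given in the sources used here. Per the labels' protocols, RNA was amplified with a SMART-Seq v4 kit, without molecular identifiers. The 7 rows without a gene name were left out (at most 0.0205% of a library).

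log2(normalized count + 1) was tested with limma 3.58.1 (R 4.3.3, variance trend, two-sided, Benjamini-Hochberg over 14473 genes, threshold 0.05), with KO libraries averaged, all 4 genotypes in the fit and 4 residual degrees of freedom. This scale understates changes of low genes. Alternatives included edgeR 4.0.16 and DESeq2 1.42.0 on the recovered reads, with the reads of a KO replicate summed. The pipeline was tested on simulated data with changes far larger than the member differences here. That test therefore says nothing about differences of this size. Exon lengths and positions came from a GENCODE annotation of mm10, and promoters from RefSeq GRCm38.p6. Named were Cd3d, Cd3e, Cd3g, Cd247, Cd4, Lck, Zap70 and Lat, any gene past the threshold, and in each comparison up to 3 genes per direction with the smallest p whose groups did not overlap. The share of all genes whose groups did not overlap was not computed, so no lack of overlap is read as a result about the members. From the wider pathway, up to 2 genes with the smallest p in a comparison were named, apart from a result that is not reported here. Other genes counted at an unadjusted p, and those called by DESeq2 alone, were named after their values were seen. The members, lists and tests were chosen with earlier results of these data known.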

Additional observations from a re-analysis of the deposited data

How the results depend on the processing

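Across 27 alternatives, 819 of 830 values of 31 named member results kept their direction and their side of the threshold. Most of these results were named for a small p and groups that did not overlap in these same data. In the main fit the smallest limma adjusted p of a member was 0.345. The count was therefore largely set beforehand and is not a measure of how firm the results are. DESeq2 on the recovered reads called 2 members in KO against WT and 1 over both Il4 backgrounds, where limma called 0. The 9 reversals all concern KO against WT and fall on Cd3g, Lat and Lck, which were named there without regard to overlap. Cd3g was at -0.077 after quantile normalization and -0.12 with the repeat KO libraries, and between -0.11 and 0.66 when a replicate was left out. Lat was at 0.0103 when rescaled to T cell genes outside the members, 0.10 with the first KO libraries, 0.10 with all 10 libraries and a depth term, and 0.00083 with the epithelium list as a covariate, and between -0.70 and 0.53 when a replicate was left out. Lck lay between -0.064 and 1.01 when a replicate was left out. The cause of these was not tested.

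Rescaling to T cell genes moved the median of all genes by 0.10 in KO against WT, -0.22 in IL4-/-KO against IL4-/-, -0.59 in IL4-/-KO against KO, -0.28 in IL4-/- against WT and -0.31 in the interaction. The median of the members moved with it, to 0.38, 0.07, -0.65, -0.08 and -0.52, and 30, 21, 8, 14 and 7 of the 38 were then higher. Quantile normalization moved the median of all genes by 0.11 in KO against WT and 0.13 over both Il4 backgrounds, where 25 and 27 members were then higher. With the epithelial markers as a covariate, 31 members were higher in KO against WT (median 0.36) and 23 in IL4-/-KO against IL4-/- (0.10). In that fit 19 were higher in IL4-/- against WT (-0.03), 9 in the interaction (-0.47) and 28 over both backgrounds (0.23). The median of all genes in that fit is not given here. Leaving out a replicate gave member medians from -0.06 to 0.66 in KO against WT, -0.008 to 0.51 in IL4-/-KO against IL4-/-, -0.13 to 0.06 in IL4-/-KO against KO, -0.25 to 0.53 in IL4-/- against WT, -0.50 to 0.23 in the interaction and 0.12 to 0.45 over both backgrounds, and 0 members were called each time. Where this left 1 replicate of a genotype, that sample was taken to vary like the others.

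The replicate block called 0 members in all 6 comparisons. Replicate numbers share no stated origin, and deviations of same-numbered replicates correlated between -0.36 and 0.24 over 6 pairs of genotypes. Removal of the trend on exon length was added after seeing the data, and gave a KO against WT median of 0.46 and, in IL4-/-KO against KO, a Cbl value of 0.45. With 2 replicates a genotype, the 95% intervals of a member reached 0.65 to 1.75 on either side of a comparison of a pair of genotypes.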

Other observations

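T cell genes outside the receptor pathway gave a second reading of T cell RNA in each library (7 of 10 listed were found, some of which are also in the wider pathway list). Icos, a costimulatory receptor, had 15132 and 8152 normalized counts in IL4-/-KO, 23870 and 7982 in the first KO libraries with 22127 and 2997 in the repeats, 15711 and 13179 in IL4-/-, and 11406 and 17385 in WT. Cd96, an immunoglobulin-family receptor, had 5788 and 5858 in IL4-/-KO, 2351 and 2976 in the first KO libraries with 2645 and 885 in the repeats, 6209 and 3552 in IL4-/-, and 3604 and 7111 in WT. Cd96 was below both IL4-/-KO replicates in every KO library. These genes were picked after their values were seen.

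Neutrophil markers (5 of 5 found) summed to 154 and 420 in IL4-/-KO, 5696 and 583 in KO, 109 and 872 in IL4-/-, and 510 and 133 in WT. Natural killer markers (2 of 2 found) summed to 962 and 989 in IL4-/-KO, 1058 and 318 in KO, 400 and 67.6 in IL4-/-, and 85.6 and 176 in WT. These sums were mostly Klrb1c, and Ncr1 ran from 0 to 58.7 over the libraries. The B cell markers (4 of 4 found) ran from 63.2 to 267 over all libraries, the CD8 markers (2 of 2) from 115 to 1126, and the stroma and vessel markers (4 of 5) from 1224 to 2530, nearly all of it Pecam1. The list of genes induced by dissociation (6 of 6) ran from 155435 to 294867. The gamma-delta T cell markers listed (Trdc, Tcrg-C1 and Tcrg-C2) were not found by these symbols, so none was analysed here. The part of these in the results was not tested.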
